A study of Mus musculus with 3 samples.

Results

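Translation factors are the proteins that load ribosomes onto mRNA, move them along it and release the finished chain. The genes described here are those whose platform symbol starts with Eif, Eef or Gspt, plus Etf1. The array held 61 such genes under 70 probes, and 49 of them had a log2 ratio on all 3 arrays, out of 3915 genes so measured. The rule itself used names and completeness only, but it was set with earlier results of these data known. Completeness also reflects a filter of unknown rule applied to the values. Whether that filter depended on the size or direction of a ratio was not tested.

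The study compared cells of embryonic mouse kidney at 15.5 days post coitum, all from HoxB7-GFP transgenic mice with both sexes pooled. The HoxB7 promoter drives green fluorescent protein in the ureteric tree, the branching epithelium that becomes the collecting ducts, and fluorescence sorting split the kidney cells into a GFP+ and a GFP- fraction. The GFP- fraction is a mixture of all other kidney cells, and on each array amplified RNA of both fractions was hybridised together. Ratios are read as GFP+ over GFP-, a direction that is likely: the dyes are not stated and were not swapped, but the labels name GFP+ cells first and, read so, ureteric epithelium markers had a median log2 ratio of 2.05 and macrophage markers -1.91. In such bulk fractions, fewer cells of a type and less RNA per cell cannot be told apart.

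Initiation begins when eIF2, bound to GTP and the initiator tRNA, joins the small ribosomal subunit together with eIF1, eIF1A and the large scaffold eIF3. The eIF4F complex, made of the cap-binding protein eIF4E, the helicase eIF4A and the scaffold eIF4G, brings that subunit to the capped end of an mRNA. Elongation then runs on eEF1A, which delivers tRNAs, its exchange factor eEF1B, and eEF2, which moves the ribosome forward, until eRF1 and eRF3 end the chain. Initiation is restrained at separate points by kinases that phosphorylate eIF2 and so slow the exchange factor eIF2B, and by the 4E-binding proteins that sequester eIF4E.

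The arrays did not resemble each other equally. Across the 3915 genes, Pearson's r was 0.88 between arrays 2 and 3 but 0.080 between arrays 1 and 2 and 0.28 between arrays 1 and 3; genes share the arrays and are not independent replicates. Array 1 had the opposite sign to both other arrays for 1958 genes, or 50.0%. Marker genes of the kidney's cell types kept 1 sign on all 3 arrays in 28 of 31 measured cases, beside 35.9% of all genes. By limma, 5 of 6 ureteric epithelium markers were higher in GFP+ cells. Lower were 5 of 6 macrophage, 3 of 4 stroma, 3 of 6 cap mesenchyme and 2 of 3 erythroid markers. Endothelial markers passed in 0 of 6 cases, and 2.78% of all genes passed. Without array 1, ureteric markers passed as higher in 6 of 6 cases. Macrophage, stroma and erythroid markers then passed as lower in 6 of 6, 4 of 4 and 3 of 3. Of 6 cap mesenchyme markers, 1 passed as higher and 5 as lower, and 1 of 6 endothelial markers passed as lower. In that setting 46.4% of all genes passed. Results below use all arrays, and member calls, group medians and list counts without array 1 are also given. The setting without array 1 rests on arrays 2 and 3 alone, which are not known to come from separate pools of embryos. Its p-values reflect only the spread between those arrays. Omission of array 2 or of array 3 instead left 0 translation factor genes past the threshold.

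Many mRNAs of the translation machinery are known to start with a C followed by a run of C and T, the 5′ terminal oligopyrimidine tract through which growth signals control them. RefSeq start entries on GRCm38.p6 were matched for 36 of the 49 genes, and the window of 10 bases before to 20 bases from the annotated start was searched on the transcribed strand for a C followed by at least 4 bases that are each C or T; overlapping matches were merged. Such a tract was found for 14 of the 36 genes (38.9%), against 39.6% of all 27025 genes with an entry and 43.0% of the 3137 tested genes with one. For 2 of them, Eif3f and Eif2s3x, the annotated start itself was a C followed by at least 4 such bases, against 3.01% of all genes; in both, the merged tract reaches back before the start. The windows below show both of these, the Y-linked partner of Eif2s3x, and the elongation factors Eef1a1 and Eef2; capitals mark the tract, and the annotated start is the base at position 11 when counting from 1 at the 5′ end.
Eif3f, chr7:108934405-108934434, plus strand: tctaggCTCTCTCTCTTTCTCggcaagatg
Eif2s3x, chrX:94212632-94212661, minus strand: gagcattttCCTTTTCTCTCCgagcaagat
Eif2s3y, chrY:1010585-1010614, plus strand: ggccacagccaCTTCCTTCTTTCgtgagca
Eef1a1, chr9:78481705-78481734, minus strand: ctccgCCCTCTTCCCgagggtgggggagaa
Eef2, chr10:81176621-81176650, plus strand: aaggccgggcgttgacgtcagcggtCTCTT
Genes with a tract in the window had a median mean log2 ratio of -0.013, and the 22 without had -0.077.

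By limma with Benjamini-Hochberg adjustment over all genes, 0 of the 49 translation factor genes passed an adjusted p of 0.05. Of all 3915 genes, 109 (2.78%) did, 1.38% higher and 1.4% lower. In simulated data with independent arrays, the same fit found 48.8% of changes of log2 size 1, so real differences could be missed. The smallest adjusted p of a translation factor gene was 0.129 by limma. At an unadjusted p below 0.05 there were 3, Eif4e higher and Eif4e3 and Eif3m lower in GFP+ cells, which is 6.12% of the members where 14.9% of all genes had such a p, 8.45% higher and 6.41% lower. An ordinary one-sample statistic gave 0 after adjustment and 6 at an unadjusted p below 0.05, where 12.0% of all genes had one. Mean log2 ratios ran from -0.71 to 0.42, within a range of -3.66 to 2.89 for all genes, and the median of their sizes was 0.16, beside 0.20 over all genes. The 95% limma interval lay inside a 2-fold change either way for 45 of the 49 and reached past it for Eif4e3, Etf1, Eif1ad and Eef1akmt1.

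**Figure D1:**
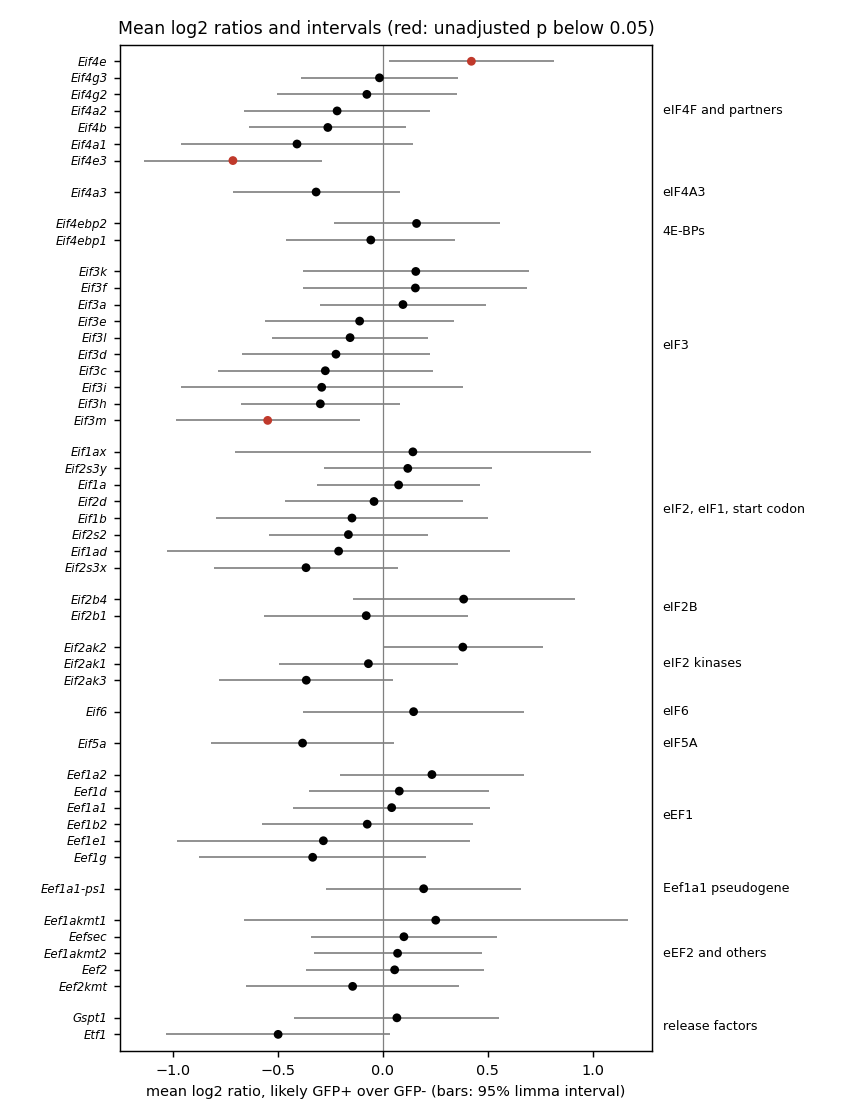
Mean log2 ratio (horizontal axis, likely GFP+ over GFP-) of each of the 49 translation factor genes, grouped by complex, with bars for the 95% limma interval over 3 arrays. The 3 red points, Eif4e, Eif3m and Eif4e3, have an unadjusted p below 0.05, and none passed after adjustment.

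The median of the 49 means was -0.074, and the medians on arrays 1, 2 and 3 were -0.12, -0.10 and -0.076. Over all genes the median was 0.034, with -0.044, 0.089 and 0.083 on the arrays. The factors therefore had a lower median than all genes on each array. The median SD of a single factor between arrays was 0.29. A sign shared by all 3 arrays was found for 15 of the 49 (30.6%), 13 lower and 2 higher in GFP+ cells; among all genes the share was 35.9%, with 15.3% lower and 20.7% higher. Means were above 0 for 20 of the 49 and below 0 for 29, whereas 54.9% of all genes had a mean above 0 and 45.1% below. The 2 that were higher throughout were Eif4e and the kinase Eif2ak2.

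**Figure D2:**
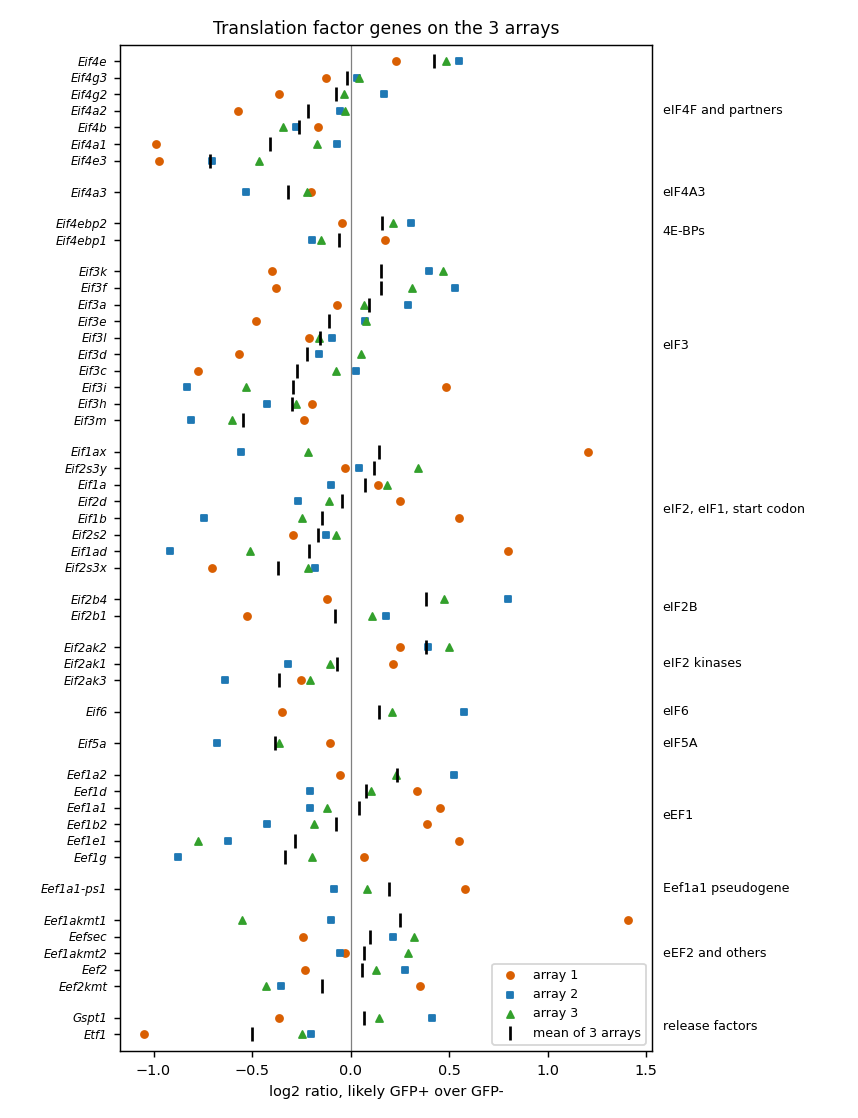
Log2 ratio (horizontal axis, likely GFP+ over GFP-) of each translation factor gene on array 1 (circles), array 2 (squares) and array 3 (triangles), with the mean as a bar, grouped by complex. In eEF1, array 1 lies above 0 for 5 of 6 genes and array 2 below 0 for 5 of 6. Of all 3915 genes, 1798 were above 0 on array 1 and 1643 below 0 on array 2. Eif4e and Eif4e3 stay on opposite sides of 0 on every array.

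The cap-binding group showed the clearest contrast between relatives. Eif4e, which holds the mRNA cap, had ratios of 0.23, 0.55 and 0.48 on arrays 1, 2 and 3 (mean 0.42 ± 0.17, SD, n = 3; 1.34-fold; limma adjusted p = 0.301). Eif4e3, a related cap-binding protein, had -0.97, -0.70 and -0.46 (mean -0.71 ± 0.26; 1.64-fold lower; limma adjusted p = 0.129). Eif4e was above 0 and Eif4e3 below 0 on every array, so their values did not overlap. Within each array Eif4e exceeded Eif4e3 by 1.20, 1.25 and 0.95 log2 units, a mean of 1.14 ± 0.16 that is given as a description without a test. Without array 1 both passed by limma, Eif4e at 0.52 and Eif4e3 at -0.58 (adjusted p = 0.00986 for each), in a setting where 46.4% of all genes passed. The other cap-binding relative, Eif4e2, had no value.

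The remaining eIF4F genes leaned lower without passing. Eif4a1, the main helicase that unwinds mRNA leaders, had -0.99, -0.071 and -0.17, and its close relative Eif4a2 had -0.57, -0.054 and -0.028. In both helicases array 1 was far below the other arrays, and their difference of -0.19 ± 0.20 was within its own spread. Eif4b, which stimulates the helicase, had a narrow range of -0.17, -0.28 and -0.34 (mean -0.26 ± 0.089). The scaffolds were closest to 0: Eif4g3 had a mean of -0.016 ± 0.094, and Eif4g2, a relative of eIF4G that lacks the eIF4E-binding part, had -0.076 ± 0.27. Of the 7 measured genes of the whole group, 5 kept 1 sign on all arrays, 4 lower and 1, Eif4e, higher. Among all genes 35.9% kept 1 sign, 15.3% lower and 20.7% higher. The group's median was -0.22, with -0.36 on array 1 against -0.054 and -0.035 on arrays 2 and 3. Without array 1 it was -0.041. Eif4h shared its probe with other genes and was not used.

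Among proteins that restrain or neighbour eIF4F, differences were small. Eif4ebp1 and Eif4ebp2, which bind eIF4E and keep it from eIF4G, had means of -0.057 ± 0.20 and 0.16 ± 0.18. On array 1 Eif4ebp1 was above Eif4ebp2 by 0.21, and on arrays 2 and 3 it was below by -0.50 and -0.37, so the order of the pair depended on the array. Eif4enif1, which carries eIF4E into the nucleus, had -0.48 on array 1 and 0.044 on array 3 and was not tested. Eif4a3, a helicase relative that anchors the exon junction complex, was below 0 on every array at -0.20, -0.53 and -0.22 (mean -0.32 ± 0.19, limma adjusted p = 0.441). Without array 1 it passed at -0.38 (limma adjusted p = 0.0404), beside 46.4% of all genes.

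The eIF3 complex was measured through 10 of its 12 genes on the array. Of the 10 means, 7 were below 0, beside 45.1% of all genes. Eif3m was the lowest, with -0.23, -0.81 and -0.60 (mean -0.55 ± 0.29, 1.46-fold lower, limma adjusted p = 0.239). Eif3h had -0.19, -0.42 and -0.28, and Eif3l had -0.21, -0.094 and -0.16. These 3 subunits were the only measured ones of eIF3 below 0 on every array, and none of the 10 was above 0 on every array. Over all genes these shares were 15.3% and 20.7%. Eif3k was the highest, at -0.40 on array 1 and 0.40 and 0.47 on arrays 2 and 3.

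Subunits of eIF3 did not move as a block. Eif3f had -0.38, 0.53 and 0.31, much like Eif3k, whereas Eif3i, a WD-repeat subunit, had the reverse arrangement of 0.48, -0.83 and -0.53. Eif3a and Eif3c, large subunits of the core, had means of 0.096 ± 0.18 and -0.27 ± 0.44, Eif3d, which can itself contact the cap, -0.22 ± 0.31, and Eif3e -0.11 ± 0.32. Array 1 was below 0 for 9 of the 10, with Eif3i the exception, while arrays 2 and 3 each had 5 above and 5 below. Of all 3915 genes, 2117 were below 0 on array 1, and 2272 and 2326 were above 0 on arrays 2 and 3. The complex median was -0.31 on array 1 and -0.033 and -0.010 on arrays 2 and 3, and the median of the means moved from -0.19 to -0.038 without array 1. In that setting Eif3m, Eif3h and Eif3i passed as lower (adjusted p = 0.00553, 0.032 and 0.00787 by limma). Eif3f and Eif3k passed as higher (limma adjusted p = 0.0228 and 0.016), where 46.4% of all genes passed. Eif3j1 had a single value, -0.0087 on array 3, and Eif3b had none.

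The group of factors that carry the initiator tRNA and choose the start codon had 8 of its 9 genes on the array measured. Eif1ad, which carries an eIF1A-like domain, was also counted in this group. Eif2s3x, the X-linked gene of the eIF2 gamma subunit whose start window is shown above, had -0.70, -0.18 and -0.21 (mean -0.37 ± 0.29), and Eif2s2, the beta subunit, had -0.29, -0.13 and -0.076. Eif2s3y, the Y-linked partner of Eif2s3x, had -0.028, 0.041 and 0.34 (mean 0.12 ± 0.20). Eif2s3x lay below Eif2s3y on every array, by a mean of -0.48 ± 0.24, a pair compared after its values were seen. A second probe of Eif2s3x had -0.068 on array 1 and 0.45 on array 2, above the first probe on both, so the probes of this gene disagree.

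In the small eIF1 family, 3 genes varied widely between arrays. Eif1ax, the X-linked eIF1A, had 1.20 on array 1 and -0.56 and -0.22 on arrays 2 and 3, and Eif1a, its autosomal relative, stayed between -0.10 and 0.18. Eif1b, a relative of the start-codon factor eIF1, had 0.55, -0.74 and -0.25. Eif1ad, which carries an eIF1A-like domain, had 0.80, -0.92 and -0.51. All 3 genes of wide spread were thus above 0 on array 1 and below 0 on both others. Without array 1 they passed as lower by limma, as did 18.9% of all genes. Eif1ax was then at -0.39, Eif1b at -0.49 and Eif1ad at -0.71 (limma adjusted p = 0.0406, 0.0334 and 0.00937). The sign of the Eif1ax mean, 0.14 with all arrays, thus turned. Eif2d, which can place the initiator tRNA by another route, had a mean of -0.042 ± 0.26, and Eif5, which triggers GTP hydrolysis on eIF2, had -0.071 on array 3 alone.

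In the control of eIF2 by phosphorylation, 2 kinases kept opposite signs. Eif2ak2, the kinase PKR that senses double-stranded RNA, had 0.25, 0.39 and 0.50 (mean 0.38 ± 0.13; 1.30-fold; limma adjusted p = 0.336). Eif2ak3, the kinase PERK of the endoplasmic reticulum, had -0.25, -0.63 and -0.21 (mean -0.36 ± 0.24; adjusted p = 0.409). Their values did not overlap, and the difference of 0.75 ± 0.27 is a description of a pair picked after its values were seen. Eif2ak1, the heme-regulated kinase, had 0.22, -0.32 and -0.11, and Eif2ak4 had no value. Without array 1, Eif2ak2 passed as higher and Eif2ak3 as lower by limma (adjusted p = 0.0155 and 0.0421). Over all genes 27.6% then passed as higher and 18.9% as lower. Of the exchange factor eIF2B, Eif2b4, the delta subunit, had -0.12, 0.80 and 0.47 (mean 0.38 ± 0.47) and Eif2b1, the alpha subunit, -0.53, 0.18 and 0.11; Eif2b2 and Eif2b3 had no value.

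Genes of translation signalling outside the factor names were read beside these. Of 21 listed genes, 8 were measured and 0 passed, beside 2.78% of all genes, with a median of -0.24. Without array 1, 4 of the 8 passed by limma, Mtor as higher and Ppp1r15a, Ddit3 and Atf4 as lower, beside 46.4% of all genes, and the median was -0.22. Ppp1r15a, which targets a phosphatase to eIF2, had 0.11, -1.58 and -0.68, and Ddit3, a transcription factor induced when eIF2 is phosphorylated, had 0.17, -1.15 and -0.79. Atf4, whose mRNA is translated preferentially in that state, had 0.068, -0.77 and -0.64, so these 3 genes were below 0 on arrays 2 and 3 and slightly above 0 on array 1. Atf5, a relative of Atf4 that is also known to be translated under eIF2 phosphorylation, had the reverse signs of -0.16, 0.12 and 0.058. Mtor, the kinase that phosphorylates the 4E-binding proteins, was like Atf4 and Atf5 named after its values were seen. It was above 0 on every array (mean 0.30 ± 0.10, limma adjusted p = 0.448). Akt1s1 and Tsc2, named likewise, were below 0 on every array (means -0.28 ± 0.079 and -0.16 ± 0.15). No other measured gene of the list kept 1 sign. Among all genes 20.7% were above 0 and 15.3% below 0 on every array.

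Late initiation and the first peptide bonds rested on 2 measured genes. Eif6, which keeps the large subunit apart from the small subunit, had -0.35, 0.58 and 0.21, with array 1 below 0 and the others above. Eif5a, the factor that carries hypusine and helps ribosomes through difficult stretches, was below 0 on every array at -0.10, -0.68 and -0.36 (mean -0.38 ± 0.29; limma adjusted p = 0.409). Without array 1, Eif5a passed as lower at -0.52 and Eif6 as higher at 0.39 (limma adjusted p = 0.0166 and 0.0421). In that setting 46.4% of all genes passed. The enzymes that make hypusine and diphthamide, the latter the modification of eEF2, had 2 of 8 listed genes measured, Dohh (0.12 ± 0.11) and Dph1 (0.21 ± 0.34), and neither passed; without array 1, Dph1 passed as higher at 0.40.

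In the eEF1 group, array 1 opposed both other arrays for 5 of 6 genes, as it did for 4 of the 5 other elongation genes and for 50.0% of all genes. Eef1a1, which brings aminoacyl-tRNA to the ribosome, had 0.45, -0.21 and -0.12 (mean 0.042 ± 0.36; 95% interval -0.43 to 0.51). Eef1b2, an exchange factor for eEF1A, had 0.39, -0.43 and -0.19, and Eef1g, the gamma subunit of that exchange factor, had 0.069, -0.88 and -0.20. Eef1e1, a small protein of the tRNA synthetase complex that is named as an elongation factor, had 0.55, -0.62 and -0.78. These 4 genes were above 0 on array 1 and below 0 on both other arrays, so a mean over the 3 arrays describes none of them well. Eef1d, the delta subunit, had 0.34, -0.21 and 0.10, and its second probe had 0.11 on array 3.

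Eef1a2, the form of eEF1A typical of muscle and nerve, ran the other way with -0.054, 0.53 and 0.23, so its order against Eef1a1 turned between array 1 and the others. The group medians were 0.36 on array 1 and -0.32 and -0.15 on arrays 2 and 3 and the median of the means moved from -0.016 to -0.23 without array 1. Without array 1, Eef1e1 and Eef1g passed as lower and Eef1a2 as higher by limma (adjusted p = 0.00494, 0.047 and 0.0379). In that setting 46.4% of all genes passed. The pseudogene Eef1a1-ps1 had 0.58, -0.085 and 0.085 and was above Eef1a1 on every array (Eef1a1 minus the pseudogene, -0.15 ± 0.046); the sequences are alike, so signal could be shared between their probes.

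**Figure D3:**
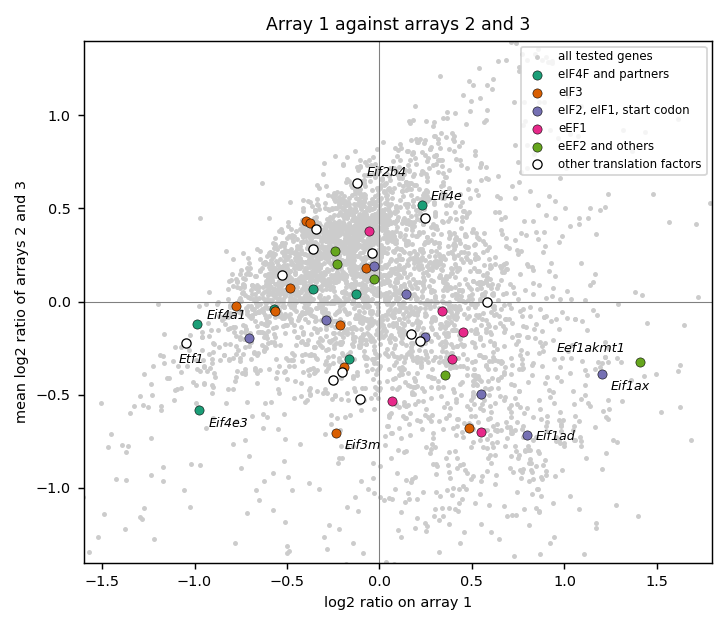
Log2 ratio on array 1 (horizontal axis) against the mean log2 ratio of arrays 2 and 3 (vertical axis) for the translation factor genes, coloured by complex, over all tested genes in grey; 86 of the 3915 genes lie outside the window and no translation factor does. The eEF1 genes other than Eef1a2 lie to the right and below 0, most eIF3 genes lie to the left, and across the 49 genes Pearson's r was -0.26, against 0.17 across all genes.

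Elongation beyond eEF1 was near 0 in the mean. Eef2, which moves the ribosome by a codon, had -0.23, 0.27 and 0.13 as the mean of 3 probes (0.056 ± 0.26). One Eef2 probe stayed near -0.16, -0.21 and -0.16, while the others had -0.44, 0.35 and 0.29 and -0.089, 0.68 and 0.25, so its probes disagree in sign on arrays 2 and 3. Eefsec, which delivers selenocysteine, had -0.24, 0.22 and 0.32. Methyltransferases of the elongation factors were mixed: Eef1akmt1 had the widest spread of all 49 genes, with 1.41, -0.10 and -0.55, Eef1akmt2 had a mean of 0.070 ± 0.19, and Eef2kmt had 0.35, -0.35 and -0.43. The group's median was 0.070. None of its 5 measured genes kept 1 sign on all arrays, beside 35.9% of all genes. Eef2k and Eef1aknmt had no value.

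At termination, Etf1 encodes eRF1, which reads the stop codons, and had -1.05, -0.20 and -0.25 (mean -0.50 ± 0.48; 1.41-fold lower; limma adjusted p = 0.377). Gspt1, which encodes its GTPase partner eRF3, had -0.36, 0.42 and 0.15 (mean 0.067 ± 0.40). Etf1 lay below 0 and below Gspt1 on every array, by a mean of -0.57 ± 0.15, a pair compared after its values were seen, whereas Gspt1 itself changed sign. Gspt2, a retrocopy-derived relative of Gspt1, had 0.44 on array 3 alone. Of the 11 listed genes that recycle or rescue ribosomes or restart them, 6 were measured. Past the threshold were 0 of the 6, beside 2.78% of all genes, and all 6 means were above 0, beside 54.9%. Mcts1, a partner in reinitiation, had the highest mean (0.31 ± 0.042), and Hbs1l, a relative of eRF3, had 0.16 ± 0.18. Array 1 opposed arrays 2 and 3 for 4 of the 6. Without array 1, Mcts1 passed as higher at 0.32, the only one of the 6 to do so, beside 46.4% of all genes. Denr and Nemf, with means of 0.0029 and 0.037 over all arrays, were then below 0 at -0.097 and -0.15.

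Set side by side, the complexes changed their order with the arrays used. Medians of the gene means were -0.22 for eIF4F, -0.19 for eIF3, -0.095 for eIF2 with the start-codon factors, -0.069 for the eIF2 kinases, -0.016 for eEF1 and 0.070 for eEF2 with the other elongation genes. Without array 1 the order was another: eEF1 was lowest at -0.23, followed by the kinases at -0.21, the start-codon group at -0.19, eIF4F at -0.041, eIF3 at -0.038 and the other elongation genes at 0.12. On array 1 alone, eIF4F and eIF3 were at -0.36 and -0.31 and eEF1 and the start-codon group at 0.36 and 0.19. On array 2 that order was turned, with eIF4F and eIF3 at -0.054 and -0.033 and eEF1 and the start-codon group at -0.32 and -0.22. Arrays 2 and 3 had the same sign for 42 of the 49 genes. Array 1 shared that sign for 15 (30.6%) and opposed it for 27 (55.1%). Among all genes these shares were 35.9% and 50.0%. No test was made between complexes, since their genes share the arrays and were chosen with earlier results known.

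**Figure D4:**
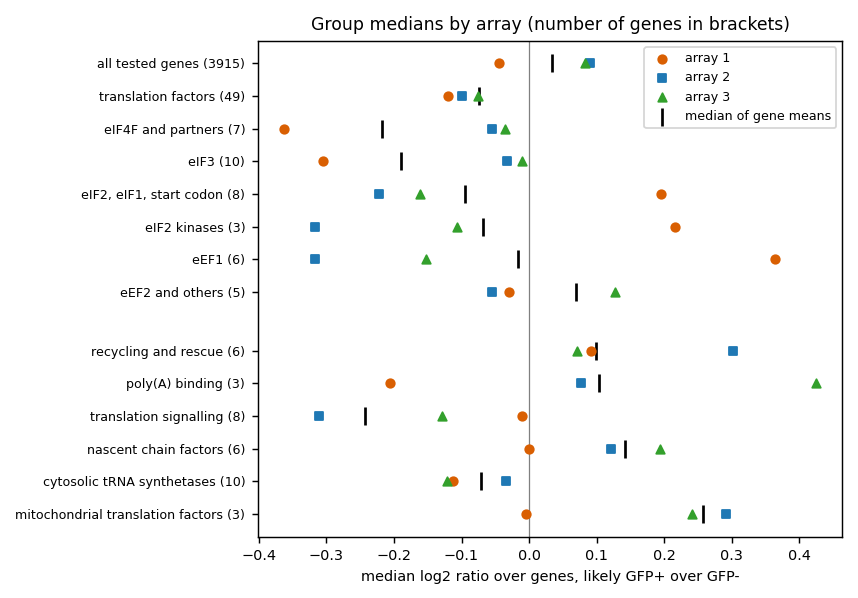
Median log2 ratio over genes (horizontal axis, likely GFP+ over GFP-) on arrays 1, 2 and 3, with the median of gene means as a bar, for all tested genes, the translation factors, complexes with at least 3 measured genes and related pathway lists. The medians of eIF4F and eIF3 are lowest on array 1, at -0.36 and -0.31, where that of eEF1 is highest, at 0.36.

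Leaving out array 1 changed what passed more than any other omission. By limma, 21 of the 49 genes then passed (42.9%), 7 higher and 14 lower in GFP+ cells, while 46.4% of all genes passed, 27.6% higher and 18.9% lower. For 9 of the 21, array 1 had the same sign as the other arrays: Eif4e and Eif2ak2 as higher, and Eif4e3, Eif4b, Eif4a3, Eif3h, Eif3m, Eif2ak3 and Eif5a as lower. For the other 12, array 1 had the opposite sign; they include Eif2b4 as higher (0.64) and Eef2kmt as lower (-0.39) beside those given above. Weighting the arrays by quality did not settle which array to trust. The default method of limma's array weights stopped before it converged and gave weights of 2.18, 16.0 and 0.029 to arrays 1, 2 and 3; 3 members then passed, Eif4e3, Eif3m and Eif2ak3, all lower, with 8.17% of all genes. A gene-by-gene method, tried after that result was seen, gave weights of 0.15, 1.55 and 4.30, and 25 members passed with 55.4% of all genes. The methods gave arrays 1 and 3 opposite ranks, so the count of members under array weights depends on the method. What separates array 1 from arrays 2 and 3 was not tested.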

How the data were processed

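Both fractions were measured on 3 two-colour oligonucleotide arrays of the Mouse Compugen design. Per the labels, images were read with Imagene, and the control channel was set to at least 10 and adjusted by a Lowess fit over 20% of points. The deposited values are log2 ratios, filtered by a rule not given in the sources used here; base 2 was settled from the values, since 2 raised to them was a whole number of thousandths in 99.97% of cases, within 0.01 of a thousandth. Depth has no meaning here, signal over background was not analysed, and precision is limited by having 3 arrays.

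The authors' normalization was kept. Of 22702 features, 881 controls and blanks were left out; 4399 probes had values on all 3 arrays, and 3987 with 1 gene symbol were averaged to 3915 genes. Each gene's mean was set against 0 by limma 3.58.1 under R 4.3.3 (two-sided, Benjamini-Hochberg over all genes), and the fit was checked on simulated data. Errors are SDs over arrays. No label ties the arrays to separate pools of embryos; the p-values then reflect array-to-array spread alone, which may be technical.

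Members and lists were chosen with earlier results of these data known; 1 misplaced gene was removed from the nascent chain list after the values were seen. Array values were to be given for members with an unadjusted p below 0.05 and for the highest and lowest of each complex; those of further members were added after their values were seen. The start windows and 6 gene pairs were added after values were seen. Every member may be named, as may the 2 genes of largest mean in each pathway list. Alternatives were omission of each array, centring, scaling (to equal median absolute values), quantile normalization, array weights (limma's default; a gene-by-gene method was added after the default stopped before converging and its result was seen), arrays 2 and 3 averaged, genes on at least 2 arrays, single probes, an ordinary statistic, a robust prior and updated symbols.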

Additional observations from a re-analysis of the deposited data

How the results depend on the processing

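No paired analysis was possible because the arrays form 1 group, with no other group to share a replicate block; each log2 ratio already compares both fractions within an array. The number of translation factor genes past the threshold was 0 with all arrays, between 0 and 21 when an array was left out (21 without array 1), 3 (all lower) under limma's default array weights, which did not converge, and 25 (10 higher, 15 lower) under gene-by-gene weights, chosen after seeing the data. Over all genes the count of 109 ran from 74 to 1818 on omission of an array, with 320 under default weights, 2170 under gene-by-gene weights and 1 under the ordinary statistic. The count of translation factors was 0 under the other alternatives run. The median of the 49 means lay between -0.10 and -0.038 on omission of an array, at -0.13 both after centring and under default array weights, and at -0.016 with arrays 2 and 3 averaged. The median of eIF2 with the start-codon factors ran from -0.19 to 0.15 on omission, with 0.15 without array 2. Eif1ax ran from -0.39 (without array 1, where it passed) to 0.49, and Eef1akmt1 passed at -0.39 under gene-by-gene weights, against 0.25 with all arrays; the cause was not tested. How far signal over background limits these values was not analysed.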

Other observations

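Other genes that serve the ribosome were also measured, and 0 of the 38 genes of the 7 pathway lists passed by limma (smallest adjusted p = 0.385; 0 at an unadjusted p below 0.05, where 14.9% of all genes had one). Without array 1, 15 of the 38 passed (9 higher, 6 lower), beside 46.4% of all genes. Of 23 listed cytosolic tRNA synthetases and their scaffold proteins, 10 were measured with a median of -0.072; Gars, the glycine enzyme, had the largest mean (0.27 ± 0.15) and was above 0 on every array, and Kars, the lysine enzyme, had -0.27 ± 0.30 and was below 0 on every array. Hars, the histidine enzyme, named after its values were seen, had 0.66 on array 1 and -0.39 and -0.26 on arrays 2 and 3, and Nars, the asparagine enzyme, -0.26, 0.31 and 0.34. Of mitochondrial translation factors, 3 of 10 were measured: the initiation factors Mtif2 (0.26 ± 0.030) and Mtif3 (0.26 ± 0.30), and the recycling factor Mrrf (-0.24 ± 0.31).

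Poly(A)-binding proteins had 3 of 9 listed genes measured. Pabpc1, which binds the mRNA tail and eIF4G, had -0.82, 0.077 and 0.064. Paip2, which competes for Pabpc1, had -0.21, 0.62 and 0.54, so both were lowest on array 1. Pabpn1, the remaining measured gene of the list, had -0.022, -0.091 and 0.42 and was lowest on array 2. The list of nascent chain factors, in which Tpt1 was also counted, had 6 of 10 measured, with a median of 0.14. Tpt1 had the lowest mean of the 6, at -0.36. Tpt1, whose mRNA is known to carry a pyrimidine tract at its start, had 0.20, -0.75 and -0.52. Eef1a1 had the same arrangement of signs, while Eef2 and Eif3f, whose start windows also held a tract, had the reverse. Array 1 opposed both other arrays for 50.0% of all genes. Btf3l4 was above 0 on every array (0.24 ± 0.050).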
